A study of Mus musculus with 4 samples.

Results

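The GIMAP genes (GTPases of immunity-associated proteins) encode a family of GTP-binding proteins of lymphocytes. The 8 mouse genes examined, Gimap1, Gimap3, Gimap4, Gimap5, Gimap6, Gimap7, Gimap8 and Gimap9, were chosen by gene symbol and account for 8 of the 24087 genes measured. RNA-seq was performed on regulatory T (Treg) cells from the spleen of C57BL/6 mice. KO libraries came from Foxp3Cre-YFPSetd2f/f mice, in which both alleles of Setd2 are floxed, and CTRL libraries came from Foxp3Cre-YFPSetd2f/+ littermates, which carry the same Cre and 1 floxed allele. Each genotype had 2 libraries, numbered 1 and 2, and each library was made from CD3+CD4+YFP+ cells pooled from 2 mice according to the labels, or from 2 to 3 according to the methods. Cre and YFP are expressed from the Foxp3 locus, so that the sort and the deletion both depend on Foxp3 expression, and the controls can lose 1 copy of Setd2 in the same cells. The labels do not give the age or sex of the mice. Setd2 encodes the methyltransferase that trimethylates lysine 36 of histone H3 (H3K36me3) over the bodies of transcribed genes, and the comparison of KO with CTRL asks how RNA levels in Treg cells differ when it is deleted.

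GIMAP proteins carry a GTP-binding domain related to that of the septins and are found on intracellular membranes, where they form dimers and higher assemblies that depend on the bound nucleotide. They are known in T cells for a role in the survival of resting lymphocytes. Loss of Gimap5 in mice and rats causes lymphopenia, loss of Gimap1 depletes mature T and B cells, and Gimap6 binds an ATG8-family protein of the autophagy machinery.

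The 8 genes lie side by side on chromosome 6, between positions 48647234 and 48770851 of GRCm38, a stretch of 123.6 kb. From the lowest coordinate on, Gimap8 (48647234 to 48660875), Gimap9 (48676129 to 48679114) and Gimap4 (48684549 to 48692060) lie on the forward strand. Gimap6 follows on the reverse strand (48701582 to 48708225). Gimap7 (48718621 to 48724636), Gimap1 (48739054 to 48743795) and Gimap5 (48746197 to 48754210) are again on the forward strand, and Gimap3 is the last, on the reverse strand (48764464 to 48770851). All 8 are annotated as protein-coding. Gimap8 has the longest coding sequence, with 688 codons, and the other 7 genes have between 291 (Gimap9) and 328 codons (Gimap4).

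A feature that all 8 genes share is the GTP-binding loop, in which a glycine is followed by 4 variable residues and then by glycine, lysine and serine. The coding bases of this loop are shown because they mark the shared domain, show how close Gimap3 and Gimap5 are, and bear on how reads can be told apart. They were read 5′ to 3′ on the coding strand from the GENCODE vM21 transcripts, with the codons of the final glycine, lysine and serine in capitals.
Gimap3, chr6:48765887-48765910, reverse strand: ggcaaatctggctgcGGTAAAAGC
Gimap5, chr6:48752594-48752617, forward strand: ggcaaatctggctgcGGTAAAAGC
Gimap4, chr6:48690421-48690444, forward strand: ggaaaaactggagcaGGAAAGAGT
Gimap6, chr6:48702750-48702773, reverse strand: gggaaaacaggaagcGGGAAAAGT
Gimap7, chr6:48723524-48723547, forward strand: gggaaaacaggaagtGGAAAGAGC
Gimap9, chr6:48677523-48677546, forward strand: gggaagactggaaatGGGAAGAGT
Gimap1, chr6:48742552-48742575, forward strand: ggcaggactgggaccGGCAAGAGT
Gimap8 loop 1, chr6:48650256-48650279, forward strand: gggaaacagggcgcaGGCAAAAGT
Gimap8 loop 2, chr6:48656119-48656142, forward strand: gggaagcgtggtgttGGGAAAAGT
Gimap8 loop 3, chr6:48658746-48658769, forward strand: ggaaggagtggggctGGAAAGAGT

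All 8 genes contained the loop, and each loop lay within a single coding exon. Gimap8 contained it 3 times, which gave 10 loops with 9 distinct sequences. The sequence shared by 2 genes was that of Gimap3 and Gimap5. Over the whole coding sequence Gimap3 and Gimap5 were identical at 90.4% of 895 aligned bases. Among the genes with a single loop, the next closest pair was Gimap3 and Gimap6, at 67.9%, and the most distant was Gimap1 and Gimap9, at 55.8%.

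This likeness limits how well reads of 2 genes can be separated. Of all stretches of 100 bases in the Gimap3 transcript, 2.19% also occur in Gimap5, and 2.21% of those in Gimap5 also occur in Gimap3. Gimap4, Gimap6, Gimap7, Gimap8 and Gimap9 shared no such stretch with another gene. A read-through gene, Gm28053, overlaps Gimap7, Gimap1 and Gimap5 on the same strand, and Gimap1os overlaps Gimap1 on the other strand. Of the Gimap1 stretches, 7.39% occur in Gm28053 or Gimap1os, and 5.18% of those of Gimap5 occur in Gm28053 or Gimap3. Neither overlapping gene has values analysed here, and the sources used here do not give the use of strand in counting. The values of Gimap1, Gimap3 and Gimap5 carry this uncertainty, while for Gimap7 it rests on the overlap of annotated positions alone.

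Library depth was even, with at least 29988267 reads in CTRL 1 and up to at least 32686764 in KO 2. The number of genes above 0 was less even, with 19100 in CTRL 1 against 15913 in CTRL 2, 16410 in KO 1 and 16180 in KO 2. These numbers were recovered from whole-number steps in the FPKM values and are lower bounds. The GIMAP genes were well covered, from at least 2901 reads for Gimap5 in CTRL 1 to at least 44855 for Gimap3 in the same library. Setd2 itself had 23.4 and 25.3 FPKM (fragments scaled by gene length and library total) in the CTRL libraries and 21.3 and 19.5 in the KO libraries. Both KO values were below both CTRL values, but the difference did not pass the threshold (log2 fold change -0.24, limma adjusted p = 0.097). The values cover the whole gene, and reads from the floxed part alone were not analysed here. The paper reports that Setd2 protein by flow cytometry and H3K36me3 by western blot were strongly reduced in splenic Treg cells of KO mice. T cell and Treg marker genes were present in every library. The sum of 7 T cell markers lay between 1953 and 2107 FPKM, and that of 7 Treg markers between 1199 and 1337. All were tested and none passed the threshold, against 5.10% of all genes called higher and 4.65% lower. At an unadjusted limma p under 0.05, 2 Treg markers were higher, and 1 Treg and 1 T cell marker were lower. Over all genes tested these shares were 16.3% and 18.4%. Foxp3, the defining transcription factor, had 121, 139.8, 112 and 119 FPKM in CTRL 1, CTRL 2, KO 1 and KO 2. Its KO values were both below its CTRL values.

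GIMAP transcripts were abundant in splenic Treg cells of both genotypes, and by FPKM the family fell into a high, a middle and a low tier. The gene lengths behind the FPKM are not given in the sources used here. Tiers, ranks and order between genes depend on them, and other lengths could change the order. Gimap3, Gimap4 and Gimap6 together made up 77.0% and 76.9% of the summed GIMAP FPKM in CTRL 1 and CTRL 2, and 74.4% and 74.9% in KO 1 and KO 2. Gimap3 ranked 105th of all 24087 genes by mean FPKM in CTRL, Gimap4 124th and Gimap6 130th. Gimap8, Gimap1, Gimap7 and Gimap9 followed between ranks 479 and 737, and Gimap5 was the lowest member at rank 1606. The order of the 8 means was the same in KO.

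Not every step in that order exceeded the spread between libraries. In CTRL, Gimap3 was above Gimap4, Gimap6 above Gimap8, Gimap1 above Gimap7 and Gimap9 above Gimap5 with no overlap between libraries. The libraries overlapped for Gimap4 and Gimap6, for Gimap8 and Gimap1, and for Gimap7 and Gimap9. In KO the steps without overlap were those from Gimap6 to Gimap8, from Gimap7 to Gimap9 and from Gimap9 to Gimap5. Gimap3 and Gimap4 overlapped in KO, as did Gimap1 and Gimap7, whereas Gimap7 and Gimap9 were apart there.

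**Figure D1:**
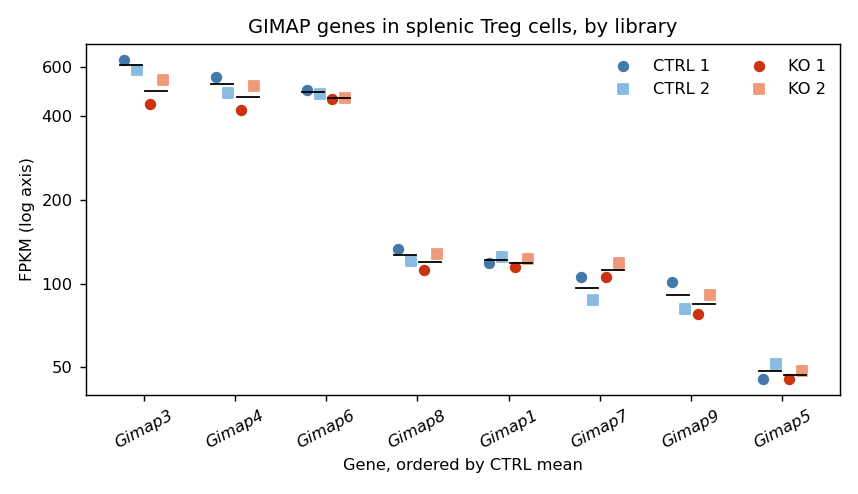
FPKM (log axis) of the 8 GIMAP genes in each of the 4 libraries, ordered by the CTRL mean, with short black lines at the mean of each genotype. Gimap3, Gimap4 and Gimap6 lie at or above 422 FPKM in every library, and both KO points lie below both CTRL points for Gimap3 and Gimap6 alone.

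No GIMAP gene passed the threshold between KO and CTRL in either direction (0 of 8 higher and 0 of 8 lower at adjusted p under 0.05, limma on log2(FPKM + 1), Benjamini-Hochberg over 11399 genes). By the same rule 5.10% of all 11399 genes were called higher and 4.65% lower. At an unadjusted p under 0.05, 1 GIMAP gene was lower, Gimap3, and none was higher, against 18.4% and 16.3% of all genes tested. A test of the recovered reads with limma-voom gave the same numbers, 0 at the adjusted and 1 at the unadjusted threshold. The log2 fold change was negative for 7 genes and positive for Gimap7. Its median over the 8 genes was -0.08, beside -0.02 over all genes tested, of which 53.8% had a negative value. In bulk RNA of this kind, fewer cells of a type and less RNA per cell cannot be told apart.

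Both KO libraries lay on one side of both CTRL libraries for 2 of the 8 genes, Gimap3 and Gimap6, and were lower in each. The same arrangement, in either direction, was found for 64.5% of all genes tested. A standard error of 0.10 on the log2 scale was the median of the 8 genes, against 0.09 over all genes tested. The 95% confidence intervals of the 8 fold changes lay between -0.60 and 0.50, as the plot of fold changes shows.

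**Figure D2:**
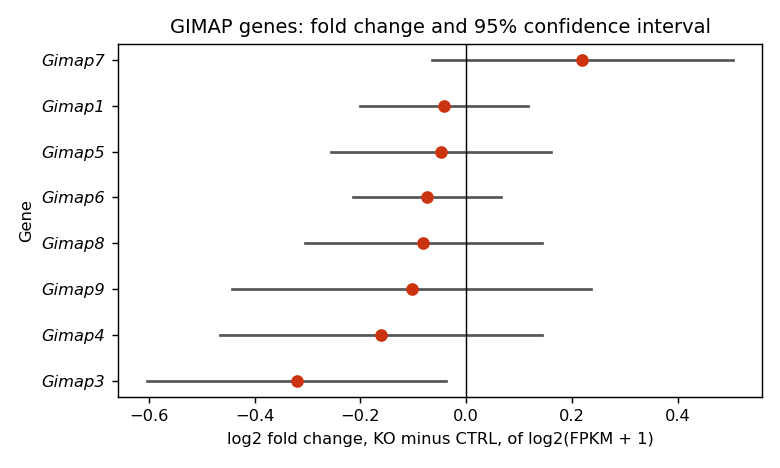
Log2 fold change of KO minus CTRL for each GIMAP gene on the log2(FPKM + 1) scale (points) with its 95% confidence interval from limma (lines). The interval of Gimap3 alone lies wholly below 0, from -0.60 to -0.04, and only Gimap7 has a positive estimate, 0.22, with an interval from -0.07 to 0.50.

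Gimap3 and Gimap5 encode closely related proteins with a membrane anchor at the C-terminus, and in mice both are known to contribute to T cell numbers. Gimap3 had the highest mean FPKM of the members, with 637 and 587 in CTRL 1 and CTRL 2 against 444 and 540.3 in KO 1 and KO 2. Both KO values were below both CTRL values, and KO 1 was the lowest of the 4 libraries. Means were 612 ± 35.8 FPKM in CTRL and 492 ± 68.5 in KO (SD, n = 2 each), a log2 fold change of -0.32 with a standard error of 0.11. This corresponds to a difference of -19.9% (95% confidence interval -34.2% to -2.59%). The limma p was 0.033 before and 0.11 after adjustment, and with limma-voom on the recovered reads the adjusted p was 0.076. Of all genes tested, 11.1% had a lower fold change. The size rested in part on KO 1, since the log2 fold change was -0.18 without it and -0.46 without KO 2, with adjusted p = 0.29 and 0.11.

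Gimap5, the member needed for the long-term survival of peripheral T cells, had the lowest FPKM. It had 45.5 and 51.5 FPKM in CTRL 1 and CTRL 2 against 45.3 and 48.4 in KO 1 and KO 2. The genotypes overlapped, and the log2 fold change was -0.05 (95% confidence interval -0.26 to 0.16, limma adjusted p = 0.72). On a percent scale the interval ran from -16.2% to 11.7%. Gimap3 and Gimap5, though close in sequence, were thus the highest and the lowest member in mean FPKM. Their recovered reads numbered at least 33590 and 2901 in their lowest libraries.

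Gimap1 is required for the maintenance of mature lymphocytes. Its values were 119 and 125 FPKM in CTRL 1 and CTRL 2 against 115 and 122 in KO 1 and KO 2, and the genotypes overlapped. Its log2 fold change was -0.04 (95% confidence interval -0.20 to 0.12, limma adjusted p = 0.67), which corresponds to an interval from -13.0% to 8.43%. This interval was among the narrowest of the family.

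Gimap4 is known to speed the death of T cells after apoptotic signals. It had 556 and 486 FPKM in CTRL 1 and CTRL 2 against 422 and 512 in KO 1 and KO 2. KO 2 lay between the CTRL libraries, so the genotypes overlapped. The mean was 521 ± 49.0 FPKM in CTRL and 467 ± 64.2 in KO (SD, n = 2 each), with a log2 fold change of -0.16 (95% confidence interval -0.47 to 0.14, limma adjusted p = 0.39). The size depended on single libraries, with -0.02 without KO 1, -0.07 without CTRL 1, -0.26 without CTRL 2 and -0.30 without KO 2.

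Gimap6, the autophagy-linked member, was the steadiest of the abundant genes. Its values were 497 and 479 FPKM in CTRL 1 and CTRL 2 against 460.2 and 466 in KO 1 and KO 2. Both KO libraries were below both CTRL libraries by a small margin. The mean was 488 ± 12.3 FPKM in CTRL and 463 ± 4.38 in KO (SD, n = 2 each), and the log2 fold change of -0.07 had a 95% confidence interval from -0.21 to 0.07 (limma adjusted p = 0.39).

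Gimap7, whose GTPase activity depends on dimer formation, was the only member with a positive estimate. It had 105.22 and 87.5 FPKM in CTRL 1 and CTRL 2 against 105.19 and 119 in KO 1 and KO 2. KO 1 and CTRL 1 were nearly equal, so the genotypes overlapped. The mean was 96.4 ± 12.5 FPKM in CTRL and 112 ± 9.78 in KO (SD, n = 2 each). The log2 fold change was 0.22 with a standard error of 0.11 (limma adjusted p = 0.23), or a difference of 16.4% with a 95% confidence interval from -4.45% to 41.9%. It was 0.09 without CTRL 2 and 0.35 without CTRL 1. Of all genes tested, 82.5% had a lower fold change.

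Gimap8 and Gimap9 lie next to each other at one end of the cluster, and Gimap8 is the member with 3 GTP-binding loops. Gimap8 had 133 and 121 FPKM in CTRL 1 and CTRL 2 against 112 and 127 in KO 1 and KO 2. Gimap9 had 101 and 80.9 FPKM in CTRL 1 and CTRL 2 against 77.9 and 90.9 in KO 1 and KO 2. In both genes KO 2 lay between the CTRL libraries and KO 1 was the lowest. The log2 fold change was -0.08 for Gimap8 (95% confidence interval -0.31 to 0.14, limma adjusted p = 0.55). For Gimap9 it was -0.10 (95% confidence interval -0.44 to 0.24, limma adjusted p = 0.62), the widest interval of the family.

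Libraries of the same genotype differed from each other in the GIMAP genes. KO 2 was above KO 1 for 8 of 8 members, with a median log2 difference of 0.18 and a range from 0.02 (Gimap6) to 0.28 (Gimap3). Over all genes tested, 53.6% were higher in KO 2 than in KO 1, with a median difference of 0.01. CTRL 1 was above CTRL 2 for 6 of 8 members, against 53.4% of all genes tested. Gimap1 and Gimap5 were the exceptions. KO 1 was the lowest of the 4 libraries for 7 of the 8 members, all but Gimap7, and for 30.04% of all genes tested. The highest library was CTRL 1 for 5 members, CTRL 2 for Gimap1 and Gimap5, and KO 2 for Gimap7.

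**Figure D3:**
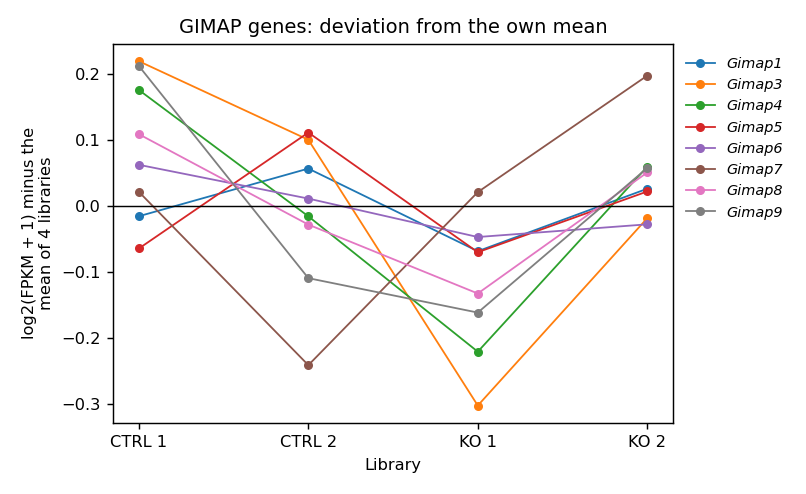
Deviation of log2(FPKM + 1) from the gene's own mean over the 4 libraries, with 1 line per GIMAP gene and libraries on the horizontal axis. All 8 lines go up from KO 1 to KO 2, 7 of them have their lowest point at KO 1, and Gimap7 has its lowest at CTRL 2.

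Marker genes of other cells also differed between libraries. The summed level of 6 myeloid markers, mostly Lyz2, was 166 and 105 FPKM in CTRL 1 and CTRL 2 against 205 and 84.7 in KO 1 and KO 2. The summed level of the erythroid markers, mostly the alpha globins, was 22.8, 4.16, 38.6 and 11.5 FPKM in the same order. Both sums were highest in KO 1, where most GIMAP genes were lowest, and second highest in CTRL 1, where 5 GIMAP genes were highest. Among 7 B cell markers, the sum ranged from 659 to 919 FPKM in CTRL and from 1186 to 1279 in KO and was mostly Ighm. Gimap genes are also expressed outside T cells, in endothelium for some members. Of 8 endothelial markers, Pecam1, which T cells also express, held nearly all of a sum between 49.2 and 58.2 FPKM. Cdh5 was at 0.15 FPKM or below in all 4 libraries, and Tek, Tie1 and Emcn were listed at 0 in 3 of the 4. The sums of 5 NK markers and 2 CD8 T cell markers lay between 2.86 and 4.62 and between 8.49 and 11.4 FPKM. None of the tested genes of these lists passed the threshold by limma. Of 6 tested B cell markers, 3 were higher in KO at an unadjusted limma p under 0.05 and none was lower, against 16.3% of all genes tested that were higher. The part of other cells in the GIMAP values was not tested.

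The family as a whole took 2193 and 2018 FPKM in CTRL 1 and CTRL 2 against 1780.5 and 2027 in KO 1 and KO 2. KO 2 lay between the CTRL libraries. The sum was 0.469%, 0.433%, 0.379% and 0.429% of all FPKM in the same order. The mean sum was 2106 ± 124 FPKM in CTRL and 1904 ± 175 in KO (SD, n = 2 each), a difference of the order of the spread between libraries.

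Shares within the family were then compared between the genotypes. The share of Gimap3 in the summed GIMAP FPKM was 29.1% in both CTRL libraries, 24.9% in KO 1 and 26.7% in KO 2. Gimap7 had a share of 4.80% and 4.34% in CTRL against 5.91% and 5.87% in KO. Gimap8 had 6.05% and 5.98% in CTRL and 6.30% and 6.29% in KO. These were the 3 members whose shares did not overlap between genotypes, and the other 5 overlapped. Shares in other gene groups were not computed, so the count cannot be read as particular to the family. The FPKM of single genes, a different measure, did not overlap for 64.5% of all genes tested. Shares in a library add up to the whole, so a lower share of Gimap3 raises those of the others. The FPKM of Gimap8 itself overlapped, with a log2 fold change of -0.08.

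Ratios between pairs of members do not depend on how libraries are scaled. Of the 28 pairs, 14 had ratios that did not overlap between genotypes. The share among pairs of other genes was not computed, so the count cannot be read as particular to the family. The FPKM of single genes, a different measure, did not overlap in 64.5% of cases. The 14 pairs included all 7 with Gimap3 and all 7 with Gimap7, their own pair being in both counts. Of the 15 pairs without either gene, 1 did not overlap, that of Gimap4 and Gimap8. FPKM of Gimap7 divided by that of Gimap3 was 0.165 and 0.149 in CTRL against 0.237 and 0.220 in KO. Shares and ratios were described after the values had been seen, were not tested, and rest on the same 4 libraries as the fold changes.

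**Figure D4:**
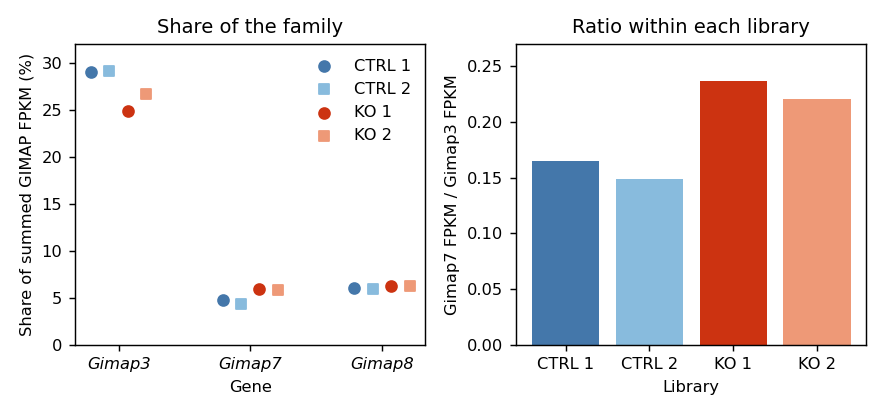
Left, share of Gimap3, Gimap7 and Gimap8 in the summed GIMAP FPKM of each library, in percent. Right, FPKM of Gimap7 divided by FPKM of Gimap3 in each library, 1 bar per library, which is 0.165 and 0.149 in CTRL and 0.237 and 0.220 in KO.

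The 3 genes whose pattern over the 4 libraries was most like the mean pattern of the GIMAP genes were Tor3a, Coa3 and Uprt, with root mean square distances of 0.0085, 0.0098 and 0.012 on the log2 scale. Of 11391 genes compared, 461 lay within 0.05, so that with 4 libraries such a pattern is shared by many genes. Tor3a had 10.6, 9.76, 8.94 and 10.3 FPKM in CTRL 1, CTRL 2, KO 1 and KO 2. It was chosen for its likeness to the GIMAP pattern, so its low in KO 1 is not a separate result.

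Genes next to the GIMAP cluster were examined because they share its chromosomal setting. Within 250 kb on either side 40 other genes are annotated, of which 18 had values and 9 were tested. None passed the threshold by limma, against 5.10% of all genes called higher and 4.65% lower. Tmem176a alone was higher at an unadjusted limma p under 0.05, a rule met by 16.3% of all genes tested. Tmem176a, a membrane protein gene of myeloid and some T cells, had 8.45 and 6.58 FPKM in CTRL 1 and CTRL 2 against 10.7 and 11.9 in KO 1 and KO 2. Both KO values were above both CTRL values, with a log2 fold change of 0.54 (limma adjusted p = 0.061). Its neighbour and paralog Tmem176b had a log2 fold change of 0.36 (limma adjusted p = 0.20). Of the 9 tested neighbours, 7 had positive values, which were also found for Zfp467, Lrrc61, Repin1, Zfp775 and AI854703. The other 2, Krba1 and Zfp862-ps, had negative ones, as did 53.8% of all genes tested. The genotypes did not overlap, in either direction, for 8 of the 9, against 64.5% of all genes tested. A shift of the neighbours as a group was not tested.

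Lists of other genes from the processes in which GIMAP proteins act were read against the share called over all genes tested, 5.10% higher and 4.65% lower. Among 14 genes of resting and naive T cells, 2 were lower in KO, none was higher and 12 did not pass (median log2 fold change -0.13, against -0.02 over all genes tested). Il7r, the receptor chain for the survival cytokine IL-7, fell from 67.1 and 61.6 FPKM in CTRL to 50.7 and 49.99 in KO, with a log2 fold change of -0.35 (limma adjusted p = 0.042). The counts moved with the setting, since 1 gene of the list was higher under 5 alternatives and 4 were lower on recovered reads, and 0 were lower without the variance trend and 1 with the exon length trend removed. Igfbp4, a gene of naive T cells named after its values were seen, had 73.8 and 69.1 FPKM in CTRL and 85.8 and 92.4 in KO, a log2 fold change of 0.31 just short of the threshold (limma adjusted p = 0.051). Klf2 and S1pr1, which act in the exit of T cells from lymphoid organs, had log2 fold changes of -0.15 and -0.12 and did not pass (limma adjusted p = 0.18 and 0.44).

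Several GIMAP proteins have been linked to the BCL2 family of survival and death regulators. Of its 14 listed genes 13 were tested, and 1 was lower, 1 was higher and 11 did not pass (median log2 fold change 0.05), close to the shares of 5.10% higher and 4.65% lower over all genes. Bcl2, which protects from apoptosis, had 36.2 and 35.3 FPKM in CTRL 1 and CTRL 2 against 19.4 and 21.9 in KO 1 and KO 2, a log2 fold change of -0.77 (limma adjusted p = 0.031). Bak1, an effector that opens the outer mitochondrial membrane, had 51.9 and 54.0 FPKM in CTRL and 76.7 and 84.8 in KO, a log2 fold change of 0.60 (limma adjusted p = 0.035). The libraries of the genotypes were well apart for both genes. Mcl1, another protective member, had a log2 fold change of -0.06 and Bcl2l1, which encodes BCL-XL, 0.17 (limma adjusted p = 0.49 and 0.31).

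Autophagy genes were listed for the partner of GIMAP6. None of 13 passed the threshold by limma, 4 were higher at an unadjusted p under 0.05, a rule met by 16.3% of all genes tested, and the median log2 fold change was 0.14. A fit with a replicate block called 1 of them higher. Gabarapl2, the ATG8-family gene whose product binds GIMAP6, had 46.4 and 50.8 FPKM in CTRL 1 and CTRL 2 against 53.2 and 53.8 in KO 1 and KO 2. Both KO values were above both CTRL values, with a log2 fold change of 0.14 (limma adjusted p = 0.21). The related Gabarapl1 had a log2 fold change of 0.52 (limma adjusted p = 0.072). The 4 genes of the GSK3B and FOXO group, which have been linked to GIMAP5 in T cells, had a median log2 fold change of 0.02. None of them passed by limma at the adjusted or the unadjusted threshold. Foxo1, which drives the resting programme of T cells, had 74.6, 86.3, 78.4 and 82.3 FPKM in CTRL 1, CTRL 2, KO 1 and KO 2.

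Other GTPases of immune cells, those induced by interferon, were set beside the GIMAP genes. Of 17 genes, 1 was lower in KO, none was higher and 16 did not pass (median log2 fold change -0.03), near the 4.65% of all genes called lower. Gbp10, a guanylate-binding protein gene, had 14.7 and 13.9 FPKM in CTRL and 8.16 and 9.70 in KO, a log2 fold change of -0.62 (limma adjusted p = 0.038). It belongs to a group of near-identical genes, so its reads may be shared with them. The calls of Il7r, Bcl2, Bak1 and Gbp10 were lost when any 1 of the 4 libraries was left out and when genes with low values were not filtered. Without the variance trend that of Il7r was lost as well.

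**Figure D5:**
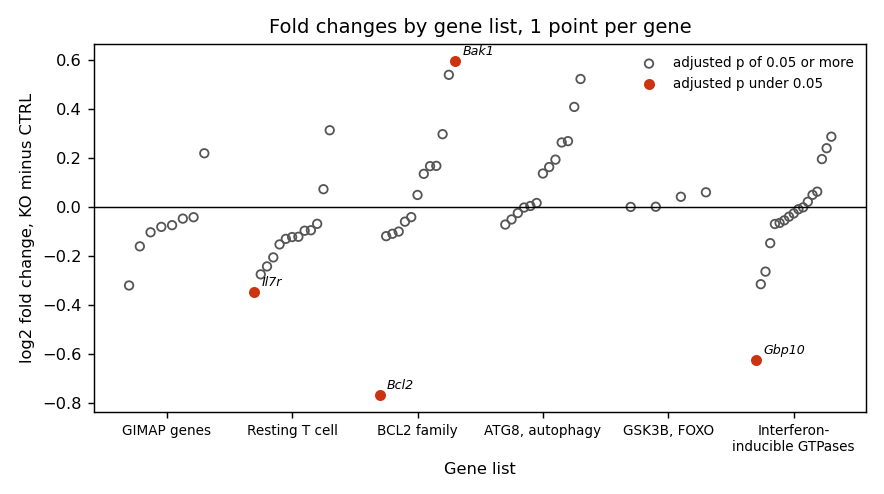
Log2 fold change of KO minus CTRL for the tested genes of 6 lists, 1 point per gene and without 1 resting T cell gene not reported here, in rising order within a list. Filled points passed adjusted p under 0.05 and are labelled. No GIMAP gene is filled, and their points lie between -0.32 and 0.22, whereas Bcl2 reaches -0.77 and Bak1 0.60.

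The splenic Treg signature used by the study, which was defined in other mice, includes Gimap3, Gimap5, Gimap7 and Gimap9. In the spleens compared here these 4 genes had log2 fold changes of -0.32, -0.05, 0.22 and -0.10, and none passed the threshold.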

How the data were processed

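The authors mapped reads to mm10 (GRCm38) with HISAT2 (2.2.1), counted them per gene with featureCounts (2.0.1) and, per the labels and methods, compared genotypes with edgeR (3.34.0). The deposited values are FPKM made by the authors, 1 column per library, with no further scaling between libraries stated. The gene lengths, annotation version, strand setting and treatment of multi-mapped reads are not given in the sources used here. Columns named WT were read as the CTRL libraries with the same number.

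Genotypes were compared with limma (3.58.1, R 4.3.3, lmFit and eBayes with trend) on log2(FPKM + 1), two-sided, for the 11399 genes that reached an FPKM of 1 in 2 or more libraries, with Benjamini-Hochberg adjustment across all 11399. Fold changes on this scale understate changes of low genes. The p-values rest on the spread between 2 pools of mice per genotype, moderated towards that of genes of similar level (2 residual and 3.05 prior degrees of freedom). A count test was not used, because the values are not counts. For 99.995% of genes above 0, FPKM values scaled by relative depth were whole multiples of a shared unit, taken as 1 read (within 0.01 reads). Genes above 0 in only 1 library meet this rule whatever their value, so the share alone does not show that reads were recovered. The recovered reads, which are lower bounds, were tested with limma-voom. The script was tested on simulated data.

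Named genes were the 8 members, Setd2, genes of the fixed lists that passed or whose role called for a value, tested genes within 250 kb of the cluster, and the 3 genes nearest to the members' mean pattern. A resting T cell gene and a B cell marker are not reported here and remain in the counts, sums and medians. The members and lists were chosen with earlier results of these data known. Positions and transcripts came from GENCODE vM21 (GRCm38), which annotated 24021 of 24087 rows. Coding sequences were aligned globally with Biopython (1.88). Other steps used Python 3.11.15, numpy 2.4.6 and pandas 2.3.3. The alternatives were a pseudocount of 0.1, no filter, a mean FPKM above 5, 3 other scalings, 2 other variance models, recovered reads, removal of the trend with exon length, the replicate number as a block, and leaving out each library.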

Additional observations from a re-analysis of the deposited data

How the results depend on the processing

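No GIMAP gene passed adjusted p under 0.05 in either direction under any of the 15 alternatives, of which 4 left out 1 library each. Over all genes, the unfiltered table gave 0 calls and each left-out library at most 1. The other settings called between 315 and 968 genes higher and between 321 and 1023 lower, with 866 higher and 1023 lower on recovered reads, 515 and 321 with the exon length trend removed, and 712 and 470 with median-ratio scaling, beside 581 and 530. Over the settings that kept all libraries, the log2 fold change of Gimap3 ran from -0.36 to -0.30 (limma adjusted p from 0.076 to 0.23) and that of Gimap7 from 0.12 to 0.24. With 1 library left out, Gimap3 ran from -0.46 to -0.18, Gimap4 from -0.30 to -0.02 and Gimap7 from 0.09 to 0.35. The sign turned there for Gimap1 (-0.089 to 0.0056), Gimap5 (-0.14 to 0.040), Gimap8 (-0.17 to 0.011) and Gimap9 (-0.26 to 0.057), and the median of the 8 genes was 0.0021 without KO 1. The lone library of a group was assumed to vary like the other group. The labels share only a replicate number, and the correlation of the replicate 1 deviations of both genotypes was 0.34. With the replicate block, 968 genes were higher and 805 lower, the Gimap3 adjusted p was 0.081, and 2 BCL2 family genes in place of 1, and 1 autophagy gene in place of 0, were higher. The spread was estimated from 2 libraries per genotype and moderated with that of other genes.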
